A study of Saccharomyces cerevisiae with 4 samples.

Results

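Transfer RNA (tRNA) genes of the nucleus were followed in poly(A) RNA of Saccharomyces cerevisiae, the budding yeast. The genes were the counted features named by the letter t, an amino acid, an anticodon and a nuclear chromosome letter. An example is tA(AGC)G, an alanine tRNA gene on chromosome VII. No measured value entered that rule of names, but it was chosen with earlier results of these data known. There were 274 such genes among 7126 features, in 41 anticodon families for 20 amino acids. Left out were 24 mitochondrial tRNA genes, which had 0 reads in every library, and 1 feature whose name gives no anticodon. The groups were a wild-type strain (n = 2 libraries) and a strain that carries the alleles xpo1-1 and mex67-5 together (n = 2 libraries), called the mutant here. Both strains grew at 25 °C overnight and spent 1 h at 37 °C before harvest, so the heat shift was shared by wild type and mutant and no unshifted library was among them. The question set by the study was whether splicing differs between these strains. How the alleles were made, and whether the strains are otherwise alike, is not stated in the labels.

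A tRNA carries an amino acid to the ribosome and reads a codon with its anticodon. Its gene is transcribed by RNA polymerase III from promoter elements inside the gene and ends at a run of T. The precursor is trimmed at both ends, receives a CCA end and base modifications, and leaves the nucleus through the exportin Los1 and further receptors, among which Mex67 and Xpo1 have been implicated in yeast. In some families it carries a short intron, which in this yeast is removed in the cytoplasm, after export, by the tRNA splicing endonuclease and ligase rather than by the spliceosome. Xpo1 exports proteins and several kinds of RNA, and Mex67 is the export receptor of messenger RNA. A mature tRNA has no poly(A) tail. Aberrant nuclear tRNA can receive a short one from the TRAMP complex, which marks it for the exosome.

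Assigned reads numbered 49865570 and 49321384 for the wild type, against 62205252 and 50843634 for the mutant. Reads of CRM1, the gene of Xpo1, numbered 10743 and 10857 against 11776 and 9619, in the same order. Those of MEX67 numbered 7517 and 7698 against 119717 and 98587, a 12.5-fold difference in counts per 1000000 reads (CPM). The labels name alleles of these genes, not deletions, so read counts do not check the genotype. Separate cultures are not stated for the libraries of a group, so p-values measure only how these libraries spread, which can be technical. In RNA of whole cultures, fewer cells that hold a transcript and less of it per cell cannot be told apart.

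Most nuclear tRNA genes share their sequence with other loci, which bears on every value of a single gene. The RefSeq annotation of build R64 gives 275 nuclear tRNA loci with 70 distinct gene sequences, and 242 loci have an identical copy elsewhere. None of the 50-base windows that lie wholly inside those 242 genes occurs only once in the genome, at the length of the reads used here. Among windows that overlap a gene by at least 1 base, by contrast, every locus had unique ones, with a median of 72.4% unique. Sequence that tells such copies apart therefore lies in the flanks. How the authors counted reads that match several places is not stated in the sources used here. Names without a number matched 1 locus for 151 genes, while 123 genes carry a number that the annotation does not pair with a locus and keep a set of candidate loci.

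The following 8 sequences show copies whose annotated genes are identical in sequence but whose read counts differ. They are from RefSeq, build R64, written 5′ to 3′ on the strand of the gene, with the gene's exons in capitals, introns in lower case inside the capitals, and 30 bases of flank in lower case on either side. The serine gene tS(AGA)J lies at chrX:524012-524093 on the minus strand and tS(AGA)M at chrXIII:259158-259239 on the minus strand. The proline genes are tP(UGG)A at chrI:139152-139254 on the plus strand and tP(UGG)M at chrXIII:196068-196170 on the minus strand. For alanine with anticodon UGC they are tA(UGC)O at chrXV:854187-854259 on the minus strand and tA(UGC)A at chrI:166267-166339 on the plus strand, and with anticodon AGC the genes tA(AGC)G at chrVII:774349-774421 on the plus strand and tA(AGC)F at chrVI:204924-204996 on the minus strand.
Serine gene tS(AGA)J: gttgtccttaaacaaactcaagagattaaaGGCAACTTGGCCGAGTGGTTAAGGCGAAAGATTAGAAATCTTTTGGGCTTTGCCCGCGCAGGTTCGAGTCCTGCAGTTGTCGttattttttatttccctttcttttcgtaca
Serine gene tS(AGA)M: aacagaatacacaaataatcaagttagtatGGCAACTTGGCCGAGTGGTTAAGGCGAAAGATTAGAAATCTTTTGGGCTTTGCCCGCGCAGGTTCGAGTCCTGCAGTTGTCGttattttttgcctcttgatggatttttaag
Proline gene tP(UGG)A: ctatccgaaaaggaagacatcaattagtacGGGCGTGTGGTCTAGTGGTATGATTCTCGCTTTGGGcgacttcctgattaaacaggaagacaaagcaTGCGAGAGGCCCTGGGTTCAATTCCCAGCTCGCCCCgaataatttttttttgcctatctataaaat
Proline gene tP(UGG)M: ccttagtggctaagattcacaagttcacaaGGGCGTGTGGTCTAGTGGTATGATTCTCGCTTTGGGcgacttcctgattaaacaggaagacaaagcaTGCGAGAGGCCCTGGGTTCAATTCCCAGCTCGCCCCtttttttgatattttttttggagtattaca
Alanine gene tA(UGC)O: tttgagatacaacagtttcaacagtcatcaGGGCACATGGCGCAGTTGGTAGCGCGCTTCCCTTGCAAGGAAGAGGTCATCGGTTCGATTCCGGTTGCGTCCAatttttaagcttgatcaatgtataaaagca
Alanine gene tA(UGC)A: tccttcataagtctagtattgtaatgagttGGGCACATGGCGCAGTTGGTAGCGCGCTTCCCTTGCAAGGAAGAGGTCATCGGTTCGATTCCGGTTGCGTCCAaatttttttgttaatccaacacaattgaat
Alanine gene tA(AGC)G: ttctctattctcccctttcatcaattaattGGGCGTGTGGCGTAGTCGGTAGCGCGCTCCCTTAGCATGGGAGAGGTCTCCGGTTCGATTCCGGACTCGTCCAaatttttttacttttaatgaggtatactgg
Alanine gene tA(AGC)F: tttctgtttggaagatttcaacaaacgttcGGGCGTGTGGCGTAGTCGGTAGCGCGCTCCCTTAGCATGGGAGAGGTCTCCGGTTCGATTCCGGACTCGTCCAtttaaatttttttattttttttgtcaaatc
All 82 bases of the serine pair, all 103 of the proline genes and all 73 of each alanine pair were identical, introns included. Upstream, 6 of 30 flank positions were the same in tS(AGA)J and tS(AGA)M, 9 in the proline pair, 9 in the UGC alanine pair and 13 in the AGC alanine pair. Downstream, those numbers were 16, 9, 12 and 9. A run of at least 4 T on the coding strand (motif TTTT), the sequence at which RNA polymerase III stops, stood in the 30 bases after the gene in 271 loci, or 98.5%, against 21.8% of all 30-base windows of the genome on both strands. Its median length was 7 bases over all loci.

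Read numbers of these identical genes went apart. The gene tS(AGA)J had 2 and 4 wild-type reads against 413 and 322 mutant reads, whereas its copy tS(AGA)M had 4 and 2 against 34 and 24. In the proline pair, tP(UGG)A had 1 and 2 wild-type reads against 91 and 77 mutant reads. Its identical copy tP(UGG)M had 73 and 49 against 8 and 15. The mutant libraries were thus far above the wild type at one copy and far below it at the other. Both calls passed the test across all features (edgeR quasi-likelihood, Benjamini-Hochberg adjusted p = 1.4e-09 for tP(UGG)A and 2.4e-06 for tP(UGG)M). Likewise tA(UGC)O had 10 and 10 reads against 100 and 112, a log2 change of 3.20 (SE 0.30), and tA(UGC)A had 26 and 17 against 12 and 3, a log2 change of -1.70 (SE 0.48). The latter was -2.83 without the first mutant library, and without the second it was -1.18 and no longer called (edgeR quasi-likelihood, Benjamini-Hochberg adjusted p = 0.077). For tP(UGG)M the log2 change of -2.59 was -3.26 without the second mutant library. With anticodon AGC, the gene tA(AGC)G had no read in either wild-type library and 127 and 95 in the mutant, while tA(AGC)F had 0 and 0 against 1 and 1.

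Summed over all 274 genes, tRNA reads were few in every library and more frequent in the mutant. There were 1740 and 1699 wild-type against 7389 and 5625 mutant reads, or 0.00349% and 0.00344% against 0.0119% and 0.0111% of assigned reads. Scaled to library size, this was 35.1 and 34.5 CPM in wild-type and 117 and 111 CPM in mutant libraries, with means of 34.8 ± 0.437 and 114 ± 4.51 (SD, n = 2 each), a 3.28-fold difference. Both mutant libraries lay above both wild-type ones by far more than replicates differed. The sum is a description and was not tested.

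**Figure D1:**
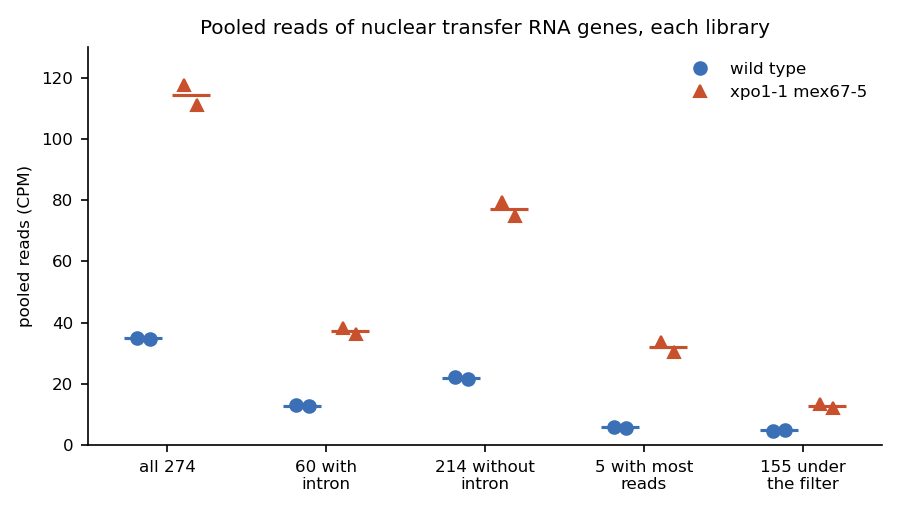
Pooled reads of nuclear tRNA genes in CPM (linear axis from 0) for all 274 genes, the 60 with an intron, the 214 without, the 5 genes with the most reads and the 155 that did not pass the filter on low counts. Points are single libraries, blue circles wild type and orange triangles mutant, and bars are group means. In each set both mutant libraries lie above both wild-type libraries, with 117 and 111 against 35.1 and 34.5 CPM for all genes.

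Most single genes had too few reads for a test. The median gene had 2 and 2 reads per wild-type library and 11 and 7 per mutant library, and 176 genes had under 10 reads on average. Mutant libraries were both above both wild-type libraries for 183 of the 274 genes and both below for 27, with 49 genes in which groups overlapped and 15 without reads. Over all 6827 features with a read, 48.4% had both mutant libraries higher and 46.6% both lower. Among the 530 other features with a read and a mean under 2 CPM, 56.4% were higher and 20% lower. The tRNA genes' share of higher ones lay above both of these, and their share of lower ones below both, as a description.

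The filter on low counts (about 0.199 CPM in at least 2 libraries) left 119 tRNA genes. Of these, 89 rose in the mutant, 12 fell and 18 did not pass the test, and 155 were not tested. In the same test 46.8% of the 6563 features tested rose and 46.3% fell. The number that rose among tested tRNA genes is no share of all of them, because 77 of the 119 reached the filter in both mutant libraries alone, 8 in both wild-type libraries alone and 17 in all 4 libraries. The 155 genes not tested together gave 4.66 and 4.87 CPM for wild type and 13.4 and 12.1 CPM for the mutant, 2.68-fold higher, so the difference in sum was not held by tested genes alone.

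The 89 genes that rose held 80.0% of mutant tRNA reads and 32.1% of wild-type ones. The 12 that fell held 33.2% of wild-type tRNA reads and 1.48% of mutant ones. Genes were sorted by the call itself here, so these shares are a description of the calls and nothing more.

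**Figure D2:**
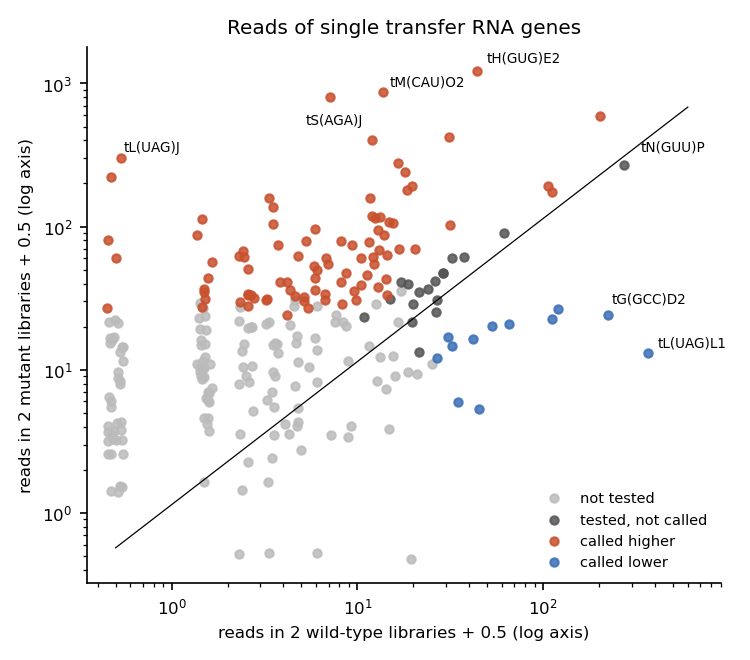
Reads of each nuclear tRNA gene, summed over the 2 wild-type libraries (x axis) and the 2 mutant libraries (y axis), with 0.5 read added, a small random shift to part equal points, and log axes. Colours give the call, and the line marks equal shares of library totals. Genes such as tS(AGA)J and tL(UAG)J stand high at the left with few or no wild-type reads, while tL(UAG)L1 and tG(GCC)D2 lie far below the line and tN(GUU)P, with 300 and 294 reads, lies close to it.

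Pooled by the amino acid they carry, tRNA genes of 19 of 20 amino acids rose and none fell. The count of 0 lower was the same at an unadjusted p under 0.05 and with DESeq2, which called 18 higher. In that fit 47% of 6464 rows rose and 46.3% fell. Differences were largest for tyrosine (19 and 20 wild-type reads, 270 and 175 mutant reads, 9.82-fold in CPM), histidine (9.24-fold), serine (8.43-fold), methionine (7.90-fold) and phenylalanine (6.55-fold). They were smallest among those that rose for asparagine (1.23-fold), glycine (1.52-fold) and valine (1.85-fold). This order rested partly on single genes. Leaving out the gene with the most reads gave 2.43-fold for histidine, where tH(GUG)E2 held 77.8% of reads, and 1.74-fold for methionine. It gave 4.07-fold for serine, 4.29-fold for phenylalanine and 6.85-fold for tyrosine. The fold rose to 2.75 for asparagine and 6.12 for glycine, and fell for valine. Without the second wild-type or the first mutant library, 18 amino acids rose, asparagine being the one whose call was lost. Cysteine genes did not pass the test, with 24 and 18 reads against 28 and 18, and their groups overlapped. Methionine genes all share the anticodon CAU, so the anticodon does not tell the initiator tRNA from the elongator. By locus, RefSeq names tM(CAU)P as IMT2 and tM(CAU)E as IMT4, initiator genes. It names tM(CAU)D as EMT1 and tM(CAU)M as EMT4, elongator genes. Reads of all methionine genes numbered 65 and 49 against 585 and 452, of which the gene tM(CAU)O2 held 73.5% over all libraries.

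Of 41 anticodon families, 37 passed the filter, and of these 32 rose, 1 fell and 4 did not pass the test. Over all 6481 rows of that fit 46.9% rose and 46.3% fell. Glycine genes with anticodon UCC had 1 and 0 wild-type reads against 34 and 26 mutant reads, 52.2-fold by counts (95% counting interval 9.02 to 2097). Their fitted log2 change of 5.42 was 4.57 without the second wild-type library and 7.85 without the first, where the remaining wild-type library has 0 reads and the value is no bound. Serine genes with AGA had 14 and 23 against 533 and 416, a 22.3-fold difference in CPM and a log2 change of 4.48 (SE 0.18). That family's difference rested largely on tS(AGA)J, which held 75.2% of its reads, and the other genes of the family together showed 12 and 19 reads against 120 and 94, or 5.997-fold.

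Threonine genes with UGU had 1 and 1 wild-type reads against 25 and 21 mutant reads, a 20.1-fold difference in CPM (95% counting interval of the ratio 5.24 to 170). The single arginine gene with CCG had 2 and 3 against 40 and 37, 13.5-fold. Serine genes with GCU had 3 and 10 against 110 and 84, 12.9-fold, with a log2 change of 3.69 that was 3.07 without the first wild-type library and 4.78 without the second. Proline genes with AGG had 11 and 9 against 144 and 122, 11.6-fold. In each of these families both mutant libraries lay clear of both wild-type libraries.

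At the other end stood families whose sum changed little while single genes went opposite ways. Leucine genes with UAG were the family that fell, from 195 and 176 reads to 169 and 133 (log2 change -0.48, SE 0.13, edgeR quasi-likelihood with Benjamini-Hochberg adjustment, adjusted p = 0.0022). All but 1 of the wild-type reads belonged to tL(UAG)L1, and without that gene the family had 0 and 1 reads against 162 and 128. Glycine genes with GCC had 132 and 131 reads against 176 and 172 and did not pass the test (log2 change 0.22, SE 0.15). Without tG(GCC)D2 they had 25 and 27 reads against 162 and 161, 5.47-fold. The family therefore did not move as 1 unit.

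Cysteine genes with GCA, 24 and 18 reads against 28 and 18, were not called either (log2 change -0.06, SE 0.34), and that sign turned when the first wild-type or the second mutant library was left out. Their gene tC(GCA)P1 rose from 3 and 3 reads to 21 and 13, while the rest of the family had 21 and 15 against 7 and 5. Asparagine genes with GUU rose from 200 and 174 reads to 304 and 225 (log2 change 0.31, SE 0.12). That call (edgeR quasi-likelihood, Benjamini-Hochberg adjusted p = 0.021) was lost without the second wild-type library (0.197), without the first mutant library (0.159) and with DESeq2 (0.123). The gene tN(GUU)P held 65.8% of its reads. In 10 families single genes were called in both directions, in a test where 46.8% of all features tested rose and 46.3% fell.

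**Figure D3:**
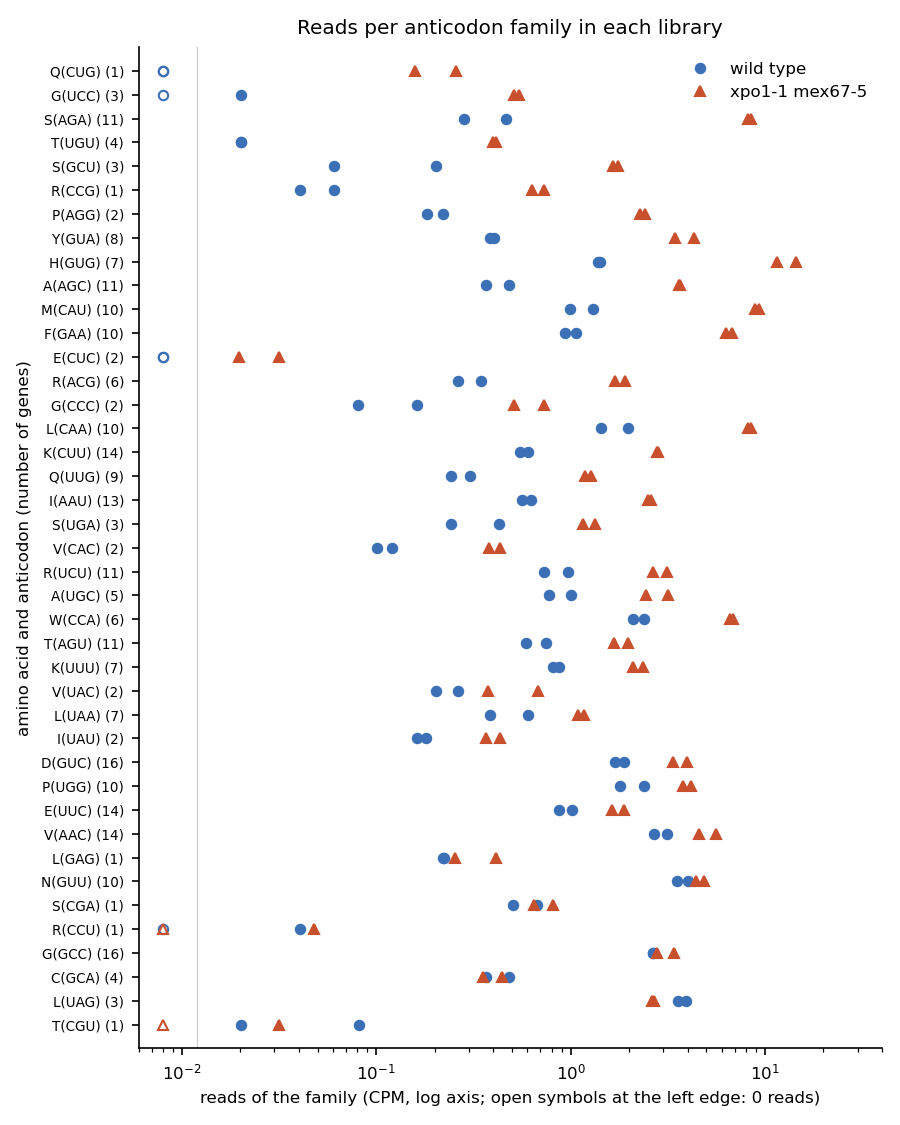
Reads of each anticodon family per library in CPM on a log axis, ordered by the ratio of mutant to wild type, with the number of genes in parentheses. Circles are wild-type and triangles mutant libraries, and open symbols at the left edge stand for 0 reads. Mutant libraries lie right of wild-type ones for most families, and symbols mix or turn for the lowest, such as C(GCA) and T(CGU), while L(UAG) has both mutant libraries to the left.

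Families left untested were small. The glutamine gene with CUG had 0 and 0 reads against 10 and 13, at least 6.67-fold higher when the wild type is set at 3 reads over its group, and glutamate genes with CUC had 0 and 0 against 2 and 1. The threonine gene with CGU (1 and 4 against 2 and 0) and the arginine gene with CCU (2 and 0 against 3 and 0) had groups that overlapped.

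Introns of tRNA genes were of interest because splicing was the study's subject. The intron tables list 358 records, and 0 of them belong to tRNA genes, so spliced and unspliced tRNA precursors could not be told apart here. RefSeq places an intron in 60 of the 274 genes, in 10 anticodon families. Those 60 genes together had 12.9 and 12.9 CPM against 38.1 and 36.2, 2.88-fold higher. The 214 genes without an intron had 22.2 and 21.6 against 79.4 and 74.9, 3.52-fold higher. Groups did not overlap in either set. Which of these folds was larger depended on few genes: leaving out the 5 genes with the most reads of each set gave 4.12-fold with introns and 2.83-fold without.

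By family, intron-containing genes differed widely. Phenylalanine genes with GAA rose 6.55-fold (53 and 46 reads against 427 and 321), leucine genes with CAA 4.87-fold (71 and 97 against 512 and 427), tyrosine genes with GUA 9.82-fold and serine genes with GCU 12.9-fold. Tryptophan genes with CCA rose 3.01-fold (104 and 117 against 432 and 333), lysine genes with UUU 2.66-fold and proline genes with UGG 1.90-fold. Single genes set much of this order. With the gene of the most reads left out, the folds were 9.73 for tryptophan, 2.36 for lysine and 1.21 for proline. They were then 4.29 for phenylalanine, 2.90 for leucine with CAA, 6.85 for tyrosine and 8.01 for serine with GCU. Isoleucine genes with UAU rose 2.33-fold, from 9 and 8 reads to 23 and 22. That call was lost without the second wild-type library (edgeR quasi-likelihood, Benjamini-Hochberg adjusted p = 0.073), without the second mutant library (0.069) and with DESeq2 (0.098). The single serine gene with CGA, with 25 and 33 reads against 41 and 41, did not pass the test, and leucine genes with UAG fell as given above.

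Histidine gene tH(GUG)E2 had the most reads of any tRNA gene. It rose from 23 and 21 reads to 752 and 473, a log2 change of 4.58 (SE 0.19), and lies at chrV:207357-207428 or chrV:434541-434612, which share the gene sequence. The methionine gene tM(CAU)O2 rose from 8 and 5 reads to 462 and 371 (log2 change 5.78, SE 0.21). Its partner by name, tM(CAU)O1, fell from 34 and 26 to 16 and 5 (log2 change -1.70, SE 0.40, and -2.59 without the first mutant library). Candidates for both are IMT1 at chrXV:710201-710272, an initiator tRNA gene, and EMT2 at chrXV:976421-976493, an elongator tRNA gene, and the names alone do not assign them.

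Other genes with many reads followed. The tryptophan gene tW(CCA)P rose from 95 and 108 reads to 316 and 247 (log2 change 1.27, SE 0.13), the leucine gene tL(CAA)C from 5 and 7 to 225 and 195 (4.90, SE 0.26) and the phenylalanine gene tF(GAA)M from 11 and 17 to 228 and 169 (3.61, SE 0.23). All 3 contain an intron. The asparagine gene tN(GUU)P had 160 and 140 reads against 169 and 125 and was not called (log2 change -0.23, SE 0.14). It was among the genes with the most wild-type reads, and its groups did not part by more than the test's threshold.

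Rises were steepest where the wild type had hardly a read, which the measure itself favours, since a small wild-type count makes a ratio large. The leucine gene tL(UAG)J, at chrX:617919-618019 on the plus strand, had 0 and 0 reads against 162 and 127, at least 83.9-fold higher when the wild type is set at 3 reads over its group. On the same floor tA(AGC)G was at least 64.4-fold higher, the serine gene tS(UGA)P (0 and 0 against 47 and 27, chrXVI:689565-689646) at least 21.5-fold and the leucine gene tL(UAA)N (0 and 0 against 30 and 24, chrXIV:726134-726217) at least 15.7-fold. All 4 were called higher. For tS(AGA)J the ratio was 107 with a 95% counting interval from 48.8 to 292, and for the asparagine gene tN(GUU)N2, with 0 and 1 reads against 59 and 58, it was 102, from 17.9 to 4057. The fitted log2 change of tN(GUU)N2, 6.37, was 5.51 without the first wild-type library and 8.81 without the second, where the remaining wild-type library has 0 reads and the value is no bound. These intervals cover counting error only.

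Falls were seen in 12 genes. The leucine gene tL(UAG)L1 fell from 195 and 175 reads to 7 and 5, a log2 change of -5.12 (SE 0.26, edgeR quasi-likelihood, Benjamini-Hochberg adjusted p = 2.7e-12), or 35.4-fold lower. It was the tRNA gene with the most wild-type reads, and its candidates are chrXII:592519-592619 on the minus strand and chrXII:732090-732190 on the plus strand. The glycine gene tG(GCC)D2 fell from 107 and 104 reads to 14 and 11 (log2 change -3.26, SE 0.25). Mutant libraries were far below the wild type at both genes and did not overlap with it.

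Next came the arginine gene tR(UCU)G3, from 23 and 19 reads to 5 and 0 (log2 change -3.20, SE 0.63). Its size depended on single mutant libraries: it was -2.39 without the second and -7.41 without the first, where the remaining mutant library has 0 reads and the value is no bound. The valine gene tV(AAC)G3 fell from 16 and 21 reads to 3 and 3 (log2 change -2.77, SE 0.55). The proline gene tP(UGG)M fell 6.09-fold and the valine gene tV(AAC)G2 from 60 and 55 reads to 22 and 5 (log2 change -2.28, SE 0.35). Replicates of the mutant differed widely at tV(AAC)G2, whose log2 change was -3.53 without the first mutant library. Beside tA(UGC)A and tM(CAU)O1 above, 4 more genes fell, among them the histidine gene tH(GUG)M (29 and 27 reads against 9 and 10) and the asparagine gene tN(GUU)K (14 and 19 against 13 and 2). The log2 change of tN(GUU)K, -1.33, was -3.01 without the first mutant library. Its call was lost without the second mutant library (-0.69, edgeR quasi-likelihood, Benjamini-Hochberg adjusted p = 0.235), without the second wild-type library (adjusted p = 0.109) and with DESeq2 (adjusted p = 0.113).

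Identical copies were compared over the whole set. A gene sequence could be given to 252 genes, of which 225 fell into 35 groups of at least a pair of identical genes. In 32 groups a gene was called, and in 8 groups identical genes were called in both directions: glycine with GCC, aspartate with GUC, valine with AAC, arginine with UCU, asparagine with GUU, histidine with GUG, alanine with UGC and proline with UGG. Calls were common among all features, as 46.8% of the 6563 tested rose and 46.3% fell. The numbers of groups with calls are therefore a description. The 7 identical histidine genes ranged from 3 to 56 wild-type reads and from 7 to 1225 mutant reads, counted over both libraries of a strain. Among the 10 identical loci of the main serine AGA gene, 8 could be placed, with at most 6 wild-type reads each and between 8 and 735 mutant reads.

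**Figure D4:**
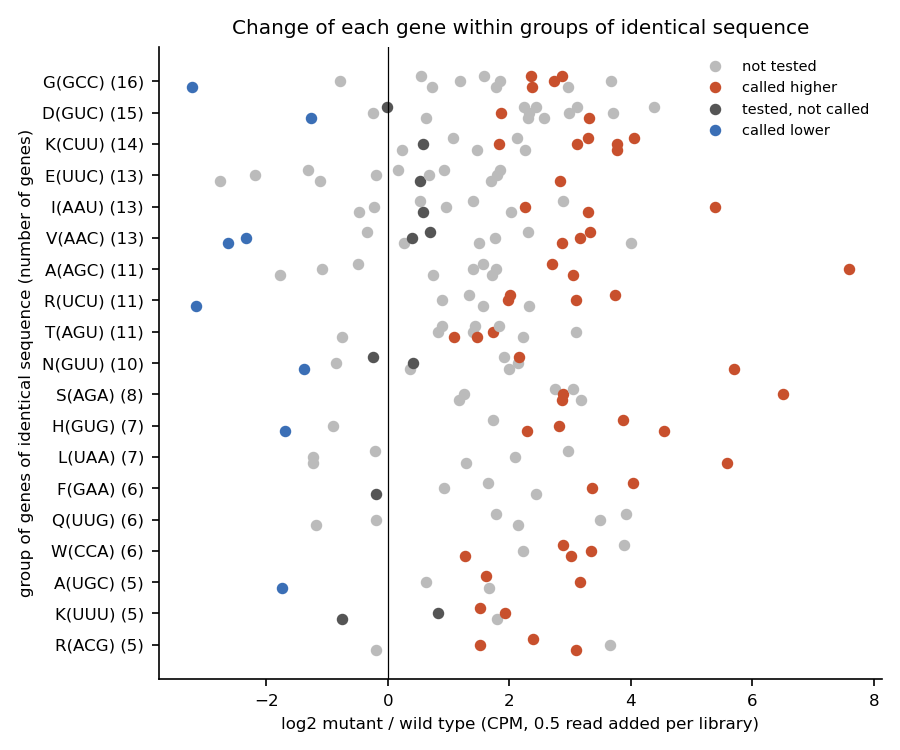
Log2 ratio of mutant to wild-type CPM, with 0.5 read added per library, for each gene (point) in groups of 5 or more tRNA genes of identical sequence (rows, with the number of genes). Colour gives the call. Genes of 1 row lie on both sides of 0 in most groups, with 1 gene called lower and 4 called higher for G(GCC) and H(GUG).

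Of the 126 genes with 1 locus and no unique window inside, 118 had reads, and 45 had at least 10 on average. Together they gave 15.3 and 14.7 CPM against 53.0 and 52.3, 3.51-fold higher. The 25 genes with at least 1 unique window inside gave 4.26 and 5.11 against 15.9 and 15.5, 3.36-fold higher. The difference between strains was thus of like size in genes with no unique window inside and in genes with at least 1. Some of the latter have few unique windows, such as tV(AAC)O with 1 of 25. The sets therefore do not fully part genes that a 50-base read can and cannot identify from inside. Strand was not marked, so reads of a tRNA gene and of a transcript that overlaps it or runs antisense to it cannot be told apart.

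Changes of neighbouring genes were set beside those of the tRNA genes. The median distance from a tRNA locus to the nearest counted feature was 273 bases, and 5 loci overlapped one. Across the 58 genes with at least 10 reads on average, 1 locus and a tested neighbour, the log2 changes of gene and nearest feature had a Spearman rho of 0.28 and a Pearson r of 0.34 over genes, and 25 of 58 had the same sign. For nearest features within 500 bases rho was 0.26 (45 genes, 18 with the same sign), and for genes with at least 30 reads on average it was 0.48 (18 genes, 11 with the same sign). Points share their libraries, and neighbours were counted in the same way. With the nearest gene whose 3′ end points at the tRNA gene, a choice made after the first was seen, rho was 0.12 and r 0.30 over 60 genes, and 22 had the same sign.

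A few of the steepest rises stood beside strongly rising heat shock genes. The gene tA(AGC)G lies 663 bases from BTN2, which encodes a factor that sorts misfolded protein and rose from 44.4 ± 2.22 to 10184 ± 344 CPM (SD, n = 2 each), 229-fold. The gene tP(UGG)A lies 249 bases from SSA1, an Hsp70 chaperone gene that rose 11.6-fold. The proline gene tP(UGG)L had 3 and 0 reads against 80 and 46, with a log2 change of 5.08 that was 4.14 without the second wild-type library and 8.91, no bound, without the first. It lies 1199 bases from the disaggregase gene HSP104, which rose 32.1-fold. Each of these neighbours points its 3′ end at the tRNA gene.

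Other steep rises stood beside genes that rose less or fell. The gene facing tS(AGA)J at 150 bases, TAH11, which acts in DNA replication licensing, rose 5.05-fold. The one facing tL(UAG)J at 1138 bases, VPS25 of the endosomal sorting machinery, rose 1.75-fold, and that facing tS(UGA)P, YPR071W, fell 2.19-fold. At tP(UGG)M, which fell, the facing gene CAT2, of carnitine acetylation, rose 6.78-fold. Of the 55 genes with 1 locus that were called higher, 20 faced a neighbour with a log2 change above 0 (median -0.43). For the 91 other matched genes, which were not called or not tested, 26 of 87 tested neighbours were above 0 (median -0.69), and for the 5 called lower 2 of 5 (median -1.36). Over all features tested the median log2 change was 0.01, with 46.8% called higher and 46.3% called lower. The medians of facing neighbours lay below that in every class. The part of neighbouring transcription in the tRNA reads was not tested.

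**Figure D5:**
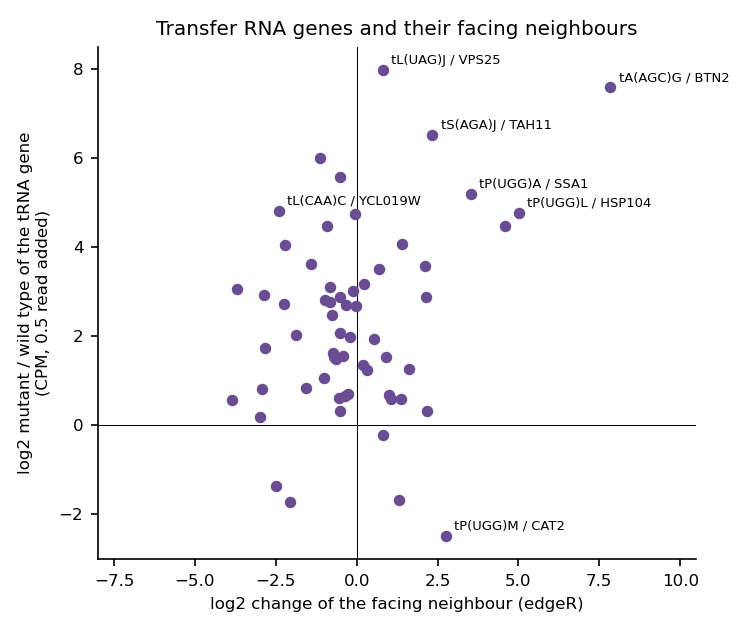
Log2 change of the nearest gene whose 3′ end faces the tRNA gene (x axis, edgeR) against the log2 ratio of the tRNA gene (y axis, CPM with 0.5 read added), for 60 tRNA genes with at least 10 reads on average and 1 locus. Named points pair a tRNA gene with its neighbour. The tRNA genes beside BTN2, SSA1 and HSP104 lie at the upper right, as does tS(GCU)L beside YLR326W, which has no label. Most tRNA genes above 0, however, stand over neighbours below 0.

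Yeast tRNA genes are also landing sites of Ty retrotransposons, which insert upstream of genes transcribed by RNA polymerase III. RefSeq lists 50 Ty elements, and 41 of the 275 tRNA loci lie within 1000 bases of one. The 26 genes with 1 locus near a Ty had 10.2 and 9.42 CPM against 18.3 and 17.95, 1.85-fold higher. The 125 genes without one had 9.34 and 10.4 against 50.6 and 49.9, 5.10-fold higher. Wild-type sums were thus alike and mutant sums were lower near a Ty, but the sums cover 26 genes against 125. They therefore do not compare levels per gene. Counted over both libraries of a strain, the median gene had 21 mutant reads near a Ty and 22 away from one. Its wild-type reads were higher near a Ty than away from one, where the median was 3. Near a Ty, mutant libraries were both higher for 14 of 26 genes and both lower for 7, against 88 and 8 of 125 away from one. Over all features with a read, 48.4% had both mutant libraries higher and 46.6% both lower. Among other features with a mean under 2 CPM these shares were 56.4% and 20%. The wild-type sum near a Ty rested on few genes, with 300 of its reads from tN(GUU)P, 203 from tW(CCA)P and 122 from tP(UGG)M, and this contrast was not tested.

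The lengths of the T run after the gene were much the same in all classes. Its median was 6 bases for the 55 matched genes called higher, 7 for the 5 called lower and 7 for the 91 others.

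Genes whose products act on tRNA were counted in the fit over all features, in which the median log2 change was 0.01. For splicing, 1 of 6 rose and 4 fell (median -0.38). The endonuclease subunit genes SEN34 (2951 and 2811 reads against 1105 and 846, log2 change -1.76, SE 0.05) and SEN54 (-1.08, SE 0.05) fell, and TRL1, the tRNA ligase, rose (0.48, SE 0.04). For end processing, 4 of 13 rose and 9 fell (median -1.30). POP6, a protein of RNase P and RNase MRP, fell from 1530 and 1603 reads to 255 and 160 (log2 change -3.12, SE 0.09), LHP1, the La protein that binds the 3′ end of new transcripts, fell (-2.41, SE 0.05), and RPR2, a further RNase P protein, rose (1.99, SE 0.04).

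For export from and import into the nucleus, 3 of 9 rose and 5 fell (median -0.11). LOS1, the main tRNA exportin, fell from 4721 and 4891 reads to 4258 and 3343 (log2 change -0.54, SE 0.04), UTP8, a nucleolar protein that acts before export, fell (-1.46, SE 0.04), and MEX67 rose (3.64, SE 0.04). For surveillance and turnover, 1 of 12 rose and 9 fell (median -1.002). AIR1, an RNA-binding subunit of TRAMP, fell from 4142 and 4002 reads to 1147 and 902 (-2.19, SE 0.05), as did RRP6, the nuclear exosome exonuclease (-1.59, SE 0.04), and XRN1, a 5′ to 3′ exonuclease (-1.92, SE 0.04). AIR2, which encodes the alternative to Air1 in TRAMP, was not called (2263 and 2169 reads against 2984 and 2438, log2 change 0.09, SE 0.04). The TRAMP polymerase gene PAP2 was not called either (4987 and 5026 reads against 6627 and 5309, log2 change 0.05, SE 0.04).

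For modification, 8 of 56 rose and 47 fell (median -1.03). TRM11, which methylates guanosine in tRNA, fell from 12206 and 11585 reads to 1604 and 1282 (log2 change -3.24, SE 0.04) and ELP2 of the Elongator complex fell (-2.41, SE 0.04), whereas KTI12, an Elongator-associated protein, rose (2.45, SE 0.04). For the transcription factors TFIIIC and TFIIIB and the repressor Maf1, 6 of 10 rose and 4 fell (median 0.18). TFC3 (0.51, SE 0.04) of TFIIIC and BDP1 (0.49, SE 0.04) of TFIIIB rose, and TFC6 of TFIIIC fell from 4094 and 3934 reads to 2024 and 1736 (-1.29, SE 0.04). All of these are messenger RNA counts, and the share of all tested features that rose or fell, given above for single genes, is the background to each count.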

How the data were processed

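Libraries of poly(A) RNA from a kit without strand marks gave single-end reads of 50 bp, per the labels' protocols. Each library has deposited files of raw read counts, one for genes and one for introns. Build R64 and the tools STAR 2.5, featureCounts, bcl2fastq 2.17 and DESeq2 1.8.2 are listed in the submitters' processing notes, without roles. The test was edgeR 4.0.16 in R 4.3.3 on counts of all features, with its default filter (filterByExpr), TMM factors of 0.994, 0.999, 1.01 and 0.996, and a robust quasi-likelihood fit on group, two-sided, Benjamini-Hochberg adjustment over all features, threshold 0.05. The biological coefficient of variation was 2.95%. Fits were repeated with tRNA genes replaced by their sums per anticodon or amino acid. CPM divides reads by the TMM-scaled library total and multiplies by 1000000. Ratio intervals are exact (Clopper-Pearson) at 95% and, like the floor of 3 reads over a group, cover counting error only.

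Names were matched to RefSeq R64 by amino acid, anticodon and chromosome, 1 of them by elimination. Distances and windows came from that genome, with 688 counted features lacking a coordinate there. Intron tables were not used beyond their names, and unused columns of per-sample values numbered 0. Replicates of a group were compared over tRNA genes by chi-square per degree of freedom (1.03 in the wild type, p = 0.412; 1.27 in the mutant, p = 0.00776). Over all features these were 10.6 and 7.15, so libraries were kept as separate samples. The tRNA genes, pathway lists and the rule for named genes were chosen with earlier results of these data known. Named were the 8 tRNA genes with the most reads, the 6 largest rises and falls among called genes with 10 reads on average and groups that do not overlap, the extreme anticodon families and all those with introns, and 3 genes per list by adjusted p. Sequences shown, tM(CAU)O1, tC(GCA)P1, tH(GUG)M, tN(GUU)K, tP(UGG)L, tS(GCU)L, AIR2, PAP2 and the neighbouring genes were chosen after values were seen. Alternatives were other scalings, no filter, DESeq2 1.42.0, a stricter threshold, a replicate block and leaving out each library. Figures were drawn with matplotlib 3.10.9.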

Additional observations from a re-analysis of the deposited data

How the results depend on the processing

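Without the filter on low counts 135 tRNA genes were called higher instead of 89, since more genes were then tested. Leaving out the 5 genes with the most reads of each set moved the pooled ratios of mutant to wild type to 2.83 for all genes, 4.12 for those with introns and 2.83 for those without, and leaving out genes that overlap another feature gave 2.99 for those with introns. The rank correlation with neighbours, 0.28, was 0.26 within 500 bases, 0.48 for genes with at least 30 reads, and 0.12 with facing neighbours, an alternative added after seeing the data. Counting windows that overlap a gene by at least 1 base left 0 loci without a unique one, against 242 for windows wholly inside. The family C(GCA) (cysteine), never called, had log2 changes from -0.25 to 0.16 when 1 library was left out, above 0 without wild-type replicate 1 (0.16) or mutant replicate 2 (0.08), and the cause was not tested. Leaving out 1 library at a time called 77 to 104 tRNA genes higher and 9 to 11 lower, 30 to 33 families higher and 1 lower, and 18 to 19 amino acids higher. With the replicate block the calls were 89 and 12 genes, 32 and 1 families and 19 and 0 amino acids, as without it. Whether the replicate numbers pair the libraries is not stated in the labels. The differences between replicates of the wild type and of the mutant correlated at -0.01 over tested genes and 0.08 over tRNA genes. Such values cannot tell whether libraries were prepared as pairs. The planned check of tRNA introns was not run, as the intron tables hold none. Of the other comparisons with alternatives, 101 for main results stayed near the main value, though numbers of calls could differ, as given above. For single genes, families and amino acids, 756 kept direction and call, and 13 lost a call (N(GUU), asparagine, I(UAU), tA(UGC)A and tN(GUU)K). With totals unscaled AIR2 gained one (adjusted p = 0.040). Depth limits single genes: 155 of 274 could not be tested.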

Other observations

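The feature tX(XXX)D, whose name gives neither amino acid nor anticodon, had 3 and 3 wild-type reads against 5 and 3 mutant reads. Of 14 features of the ribosomal DNA repeat, another multicopy locus, 12 had 0 reads in every library, whereas 118 of 126 tRNA genes without a unique 50-base window inside had reads.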
